A study of Danio rerio with 25 samples.

Results

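The genes described here are the ryanodine receptors, SERCA pumps, calsequestrins and voltage sensor subunits of skeletal muscle, which were chosen by name as the core of excitation-contraction coupling in zebrafish. In a muscle fiber, the voltage sensor in the transverse tubule, whose pore subunit is CACNA1S, detects the action potential and opens the ryanodine receptor, which releases calcium from the sarcoplasmic reticulum so that the myofibrils contract. SERCA pumps, encoded by the *atp2a* genes, then return the calcium to the sarcoplasmic reticulum, where calsequestrin stores it. Dystrophin deficient muscle is known for a leaky membrane and disturbed calcium handling, which is why these genes are of interest in *dmd* mutants.

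All 10 genes were found among the 32520 genes of the count tables, and all 10 were among the 25832 genes tested. They are *CACNA1S* copy 1 (ENSDARG00000029457) and copy 2 (ENSDARG00000042552), *RYR1* copy 1 (ENSDARG00000011422) and copy 2 (ENSDARG00000023797), *RYR3* (ENSDARG00000071331), *atp2a1* (ENSDARG00000020574), *atp2a1l* (ENSDARG00000035458), *atp2a2a* (ENSDARG00000029439), and *CASQ1* copy 1 (ENSDARG00000018105) and copy 2 (ENSDARG00000038716). Zebrafish carry duplicated copies of several of these genes. The table of gene names gives both copies of *RYR1*, *CACNA1S* and *CASQ1* the same symbol in human spelling, so they are numbered here in the order of their identifiers, and which copy bears the letter a or b was not resolved.

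RNA came from whole larvae at 7 days post-fertilization (dpf), with 2 larvae pooled in each library. The 4 groups were *dmd* mutants that completed eNMES (9 libraries), *dmd* mutants without stimulation (8 libraries), WT siblings that completed eNMES (3 libraries) and WT siblings without stimulation (4 libraries). The mutants carry the sapje allele ta222a of the dystrophin gene, which is a germline change and so not limited to muscle, and they were told from their siblings by birefringence, so that WT siblings are larvae with a healthy muscle pattern. eNMES is endurance neuromuscular electrical stimulation, given to anesthetized larvae in 3 sessions at 2, 3 and 4 dpf. Because the RNA is from whole larvae, fewer muscle fibers and less RNA per fiber cannot be told apart. The labels do not say whether the larvae of a group came from separate clutches, so p-values measure the spread between these libraries only.

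Libraries held between 7957160 and 22808348 estimated counts, the lowest being replicate 8 of the *dmd* mutants with eNMES. *dmd* transcripts had 1007 to 1434 normalized counts (counts scaled to a common library size) in *dmd* mutants with eNMES and 1054 to 1323 in *dmd* mutant controls, against 3508.5 to 4595 in WT siblings with eNMES and 2586 to 5391 in WT sibling controls, so every library fitted its genotype label. A score from 34 clock genes (component 1, 61.1% of their variance) was negative in all 3 WT siblings with eNMES and positive in all 4 WT sibling controls, so a response to eNMES and a clock gene state cannot be told apart in WT siblings. In *dmd* mutants it was negative in eNMES replicates 2 to 6 and control replicates 1 to 5, and positive in eNMES replicates 7 to 10 and control replicates 6 to 8. Skeletal muscle was well represented, since all 22 fast muscle genes of a marker list were above 0 in every library.

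Levels of the 10 genes were compared per length, in TPM, which scales transcripts by length and depth. Transcripts of the SERCA1 genes *atp2a1* and *atp2a1l* were far more abundant than those of any other member. In *dmd* mutant controls *atp2a1*, the main SERCA1 pump gene, had 4699.7 ± 251 TPM (SD, n = 8), and in WT sibling controls it had 3117 ± 35.9 TPM (SD, n = 4). Its paralogue *atp2a1l* followed with 1293 ± 89.6 TPM in *dmd* mutant controls and 1806 ± 109 TPM in WT sibling controls. *atp2a2a*, a SERCA2 gene whose mammalian relative serves heart and slow muscle, had 74.6 ± 5.68 TPM in *dmd* mutant controls and 87.2 ± 10.7 TPM in WT sibling controls. Among the release channels *RYR3* was the most abundant in both control groups, with 81.0 ± 6.86 TPM in *dmd* mutant controls and 98.4 ± 5.08 TPM in WT sibling controls. *RYR1* copy 2 had 30.7 ± 2.56 and *RYR1* copy 1 had 8.71 ± 1.22 TPM in *dmd* mutant controls. *CACNA1S* copy 2 was the main voltage sensor transcript, with 32.6 ± 2.02 TPM in *dmd* mutant controls, and *CACNA1S* copy 1 was the lowest of the 10 genes, with 4.88 ± 0.470 TPM. The calsequestrin genes lay between these channels, at 68.1 ± 9.76 TPM for *CASQ1* copy 2 and 57.2 ± 5.11 TPM for *CASQ1* copy 1 in *dmd* mutant controls, against 36.2 ± 4.75 and 41.6 ± 5.62 TPM in WT sibling controls. In *dmd* mutant controls the ranges of *RYR3*, *atp2a2a* and *CASQ1* copy 2 each overlapped with the next gene in this order, as did those of both *CASQ1* copies and those of *CACNA1S* copy 2 and *RYR1* copy 2, so these neighbours were not separated beyond their spread.

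**Figure D1:**
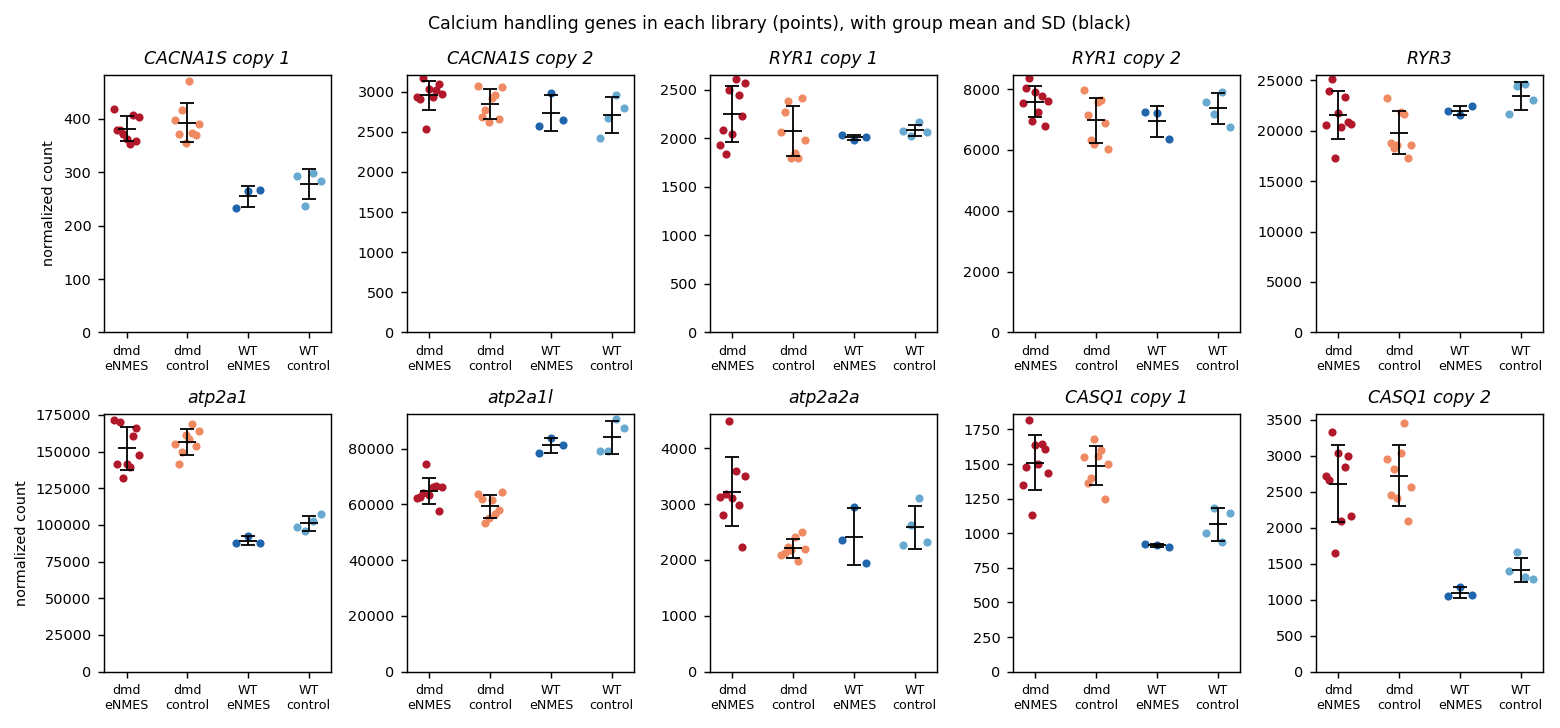
Normalized counts (vertical axis, linear from 0) of the 10 genes in the 9 libraries of *dmd* mutants with eNMES, 8 of *dmd* mutant controls, 3 of WT siblings with eNMES and 4 of WT sibling controls, with 1 point per library and the group mean ± SD in black. *atp2a1* and both *CASQ1* copies lay higher and *atp2a1l* lower in both groups of *dmd* mutants than in both groups of WT siblings, and *atp2a2a* was highest in *dmd* mutants with eNMES.

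The first comparison asked how these genes differ in dystrophin deficient larvae that were not stimulated. In *dmd* mutant controls the pump gene *atp2a1* and both calsequestrin genes were higher than in WT sibling controls, the second pump gene *atp2a1l* was lower, and the low voltage sensor copy *CACNA1S* copy 1 was higher. A gene passed the test at an adjusted p under 0.1 in edgeR, and was called where its absolute log2 fold change was also over 0.6, the thresholds of the study. By these rules 6 of the 10 members passed, beside 10.9% of all genes tested, and 2 were called, beside 3.12%. Of the 6, 4 were higher, beside 6.56% of all genes tested, and 2 were lower, beside 4.3%. Both called members were higher, beside 2.43%, and 0 were called lower, beside 0.693%. The median log2 fold change was 0.03 over the 10 members and 0.01 over all genes tested, so the set as a whole was not shifted and its members moved both ways.

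*atp2a1* had a lowest, median and highest count of 141255, 156898 and 168903 normalized counts in the 8 *dmd* mutant controls, against 98334, 96029, 102944 and 107599 in the 4 WT sibling controls. Every mutant library lay above every WT library. The log2 fold change was 0.63 (SE, the standard error of the edgeR fit, 0.07 and adjusted p = 1.04e-06), a 1.55-fold difference.

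*atp2a1l* went the other way. It had 53422, 59686 and 64450 normalized counts (lowest, median, highest) in *dmd* mutant controls, against 79064, 79094, 90580 and 87397 in WT sibling controls. Every mutant library lay below every WT library, and the log2 fold change was -0.50 (SE 0.06, adjusted p = 5.24e-06).

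The calsequestrin genes encode the main calcium store protein of fast muscle. *CASQ1* copy 2 had the largest difference of the 10 genes, with 2098, 2690 and 3461 normalized counts (lowest, median, highest) in *dmd* mutant controls, against 1396, 1659, 1313 and 1292 in WT sibling controls. This was a log2 fold change of 0.95 (SE 0.15, adjusted p = 0.000593) with no overlap between the groups. *CASQ1* copy 1 had 1248.5, 1527 and 1683 normalized counts in *dmd* mutant controls, against 999, 1180, 934 and 1147 in WT sibling controls. Its groups did not overlap either, and its log2 fold change was 0.48 (SE 0.09, adjusted p = 0.00261).

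Of the voltage sensor, *CACNA1S* copy 1 had 355, 382 and 471 normalized counts in *dmd* mutant controls, against 293, 236, 299 and 283 in WT sibling controls, again without overlap. Its log2 fold change was 0.50 (SE 0.08, adjusted p = 0.000247). *CACNA1S* copy 2, the more abundant copy, did not pass (log2 fold change 0.07, 95% interval -0.05 to 0.19). In all, 5 of the 10 members had groups that did not overlap, as had 4.98% of all genes tested.

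Among the release channels, neither *RYR1* copy passed, at log2 fold changes of -0.01 (95% interval -0.19 to 0.17) for copy 1 and -0.08 (95% interval -0.22 to 0.06) for copy 2. *RYR3*, a ryanodine receptor that zebrafish express in fast muscle, had 17317, 18682 and 23252 normalized counts (lowest, median, highest) in *dmd* mutant controls, against 21681, 24390, 24607 and 23034 in WT sibling controls. Here 6 of 8 mutant libraries lay below all WT libraries and the groups overlapped. The log2 fold change was -0.24 (SE 0.08, adjusted p = 0.0679). This result was near the threshold and was lost without any 1 of 6 libraries, with an adjusted p of 0.167, 0.187 and 0.111 without WT sibling control replicates 2, 3 and 4 and of 0.102, 0.113 and 0.102 without *dmd* mutant control replicates 2, 3 and 4. Over these 6 fits its log2 fold change stayed between -0.25 and -0.22.

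**Figure D2:**
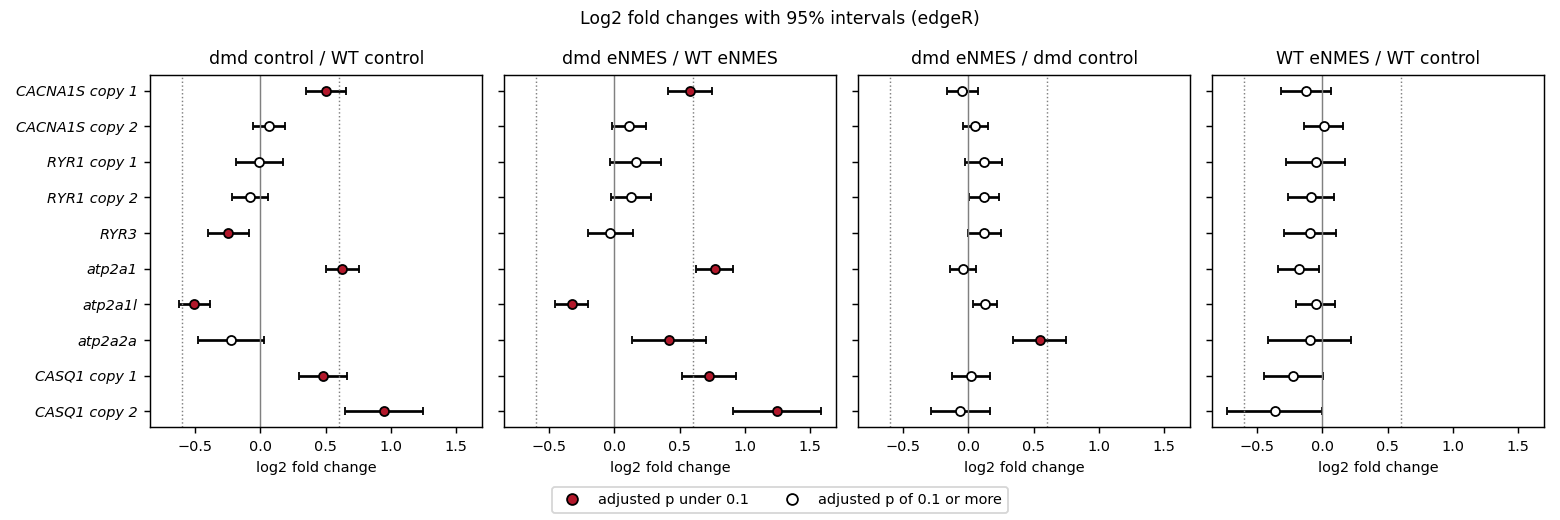
Log2 fold changes (horizontal axis) of the 10 genes with 95% intervals from edgeR, for *dmd* mutant over WT sibling controls, *dmd* mutants over WT siblings with eNMES, and eNMES over control in *dmd* mutants and in WT siblings; filled points have an adjusted p under 0.1 and dotted lines mark 0.6 in either direction. Between genotypes 6 genes passed in each panel, with eNMES only *atp2a2a* passed in *dmd* mutants (log2 fold change 0.55), and none passed in WT siblings.

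The same genes were then compared between genotypes among stimulated larvae. In *dmd* mutants with eNMES, *atp2a1*, both *CASQ1* copies, *CACNA1S* copy 1 and *atp2a2a* were higher and *atp2a1l* was lower than in WT siblings with eNMES. Again 6 of the 10 members passed, beside 12.3% of all genes tested, and 3 were called, beside 3.94%. There were 5 higher, beside 6.74%, and 1 lower, beside 5.57%. All 3 called members were higher, beside 3.0%, and 0 were called lower, beside 0.941%. Groups did not overlap for 5 members, beside 8.53% of all genes tested. The median log2 fold change was 0.29 over the 10 members, with 8 of 10 above 0, and 0.00 over all genes tested. It was 0.32 over the 22 fast muscle markers. This comparison and the one between controls share no library.

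*CASQ1* copy 2 had 1656, 2712 and 3329 normalized counts (lowest, median, highest) in *dmd* mutants with eNMES, against 1046, 1182 and 1071 in WT siblings with eNMES. The log2 fold change was 1.25 (SE 0.17, adjusted p = 0.00013), a 2.37-fold difference without overlap. *CASQ1* copy 1 differed by 0.72 (SE 0.10, adjusted p = 0.00012), with 1131 to 1817 normalized counts in the 9 mutant libraries and 902 to 925 in the 3 WT libraries. For *atp2a1* the log2 fold change was 0.77 (SE 0.07, adjusted p = 2.71e-07), with 132177, 147557 and 171469 normalized counts in *dmd* mutants with eNMES, against 87774.5, 92612 and 87538 in WT siblings with eNMES. *atp2a1l* had 57478, 64149 and 74287 normalized counts in *dmd* mutants with eNMES, against 78425, 83718 and 81164 in WT siblings with eNMES, and its log2 fold change was -0.33 (SE 0.06, adjusted p = 0.00237).

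*CACNA1S* copy 1 had 354 to 419 normalized counts in *dmd* mutants with eNMES and 233 to 268 in WT siblings with eNMES, a log2 fold change of 0.58 (SE 0.09, adjusted p = 0.000149). It lay just under the minimum for a call, and was called at 0.61 without WT eNMES replicate 2 and at 0.63 without WT eNMES replicate 3. *CACNA1S* copy 2, both *RYR1* copies and *RYR3* did not pass, with log2 fold changes between -0.03 and 0.16. *atp2a2a* passed at 0.42 (SE 0.14, adjusted p = 0.0792), but its groups overlapped and the adjusted p was 0.2 without WT eNMES replicate 1, 0.373 without WT eNMES replicate 3 and 0.108 without *dmd* mutant eNMES replicate 7. It also did not pass for *atp2a2a* when only the stimulated groups were fitted (0.178), or when the *dmd* mutants with eNMES were those with a negative (0.196) or a positive (0.344) clock gene score alone.

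Both SERCA1 genes encode the same kind of pump, so their shares of the pair were compared as well. *atp2a1* made up 78.4 ± 1.64% of the pair by TPM in *dmd* mutant controls (SD, n = 8) and 63.3 ± 1.25% in WT sibling controls (SD, n = 4). With eNMES it made up 75.9 ± 3.00% in *dmd* mutants (SD, n = 9) and 62.0 ± 0.218% in WT siblings (SD, n = 3). In both comparisons every mutant library had a higher share than every WT library (two-sided exact permutation tests, p = 0.00202 and p = 0.00455, the smallest these designs allow, and 0.0121 each when adjusted over 16 share tests).

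The other duplicates behaved in different ways. *CASQ1* copy 1 made up 45.8 ± 3.30% of its pair in *dmd* mutant controls and 53.4 ± 3.10% in WT sibling controls, since copy 2 differed more than copy 1, and the shares with eNMES were 47.5 ± 3.27% in *dmd* mutants and 55.3 ± 1.54% in WT siblings. *CACNA1S* copy 1 made up 13.0 ± 0.997% in *dmd* mutant controls and 10.0 ± 1.18% in WT sibling controls, and 12.3 ± 0.941% and 9.20 ± 0.595% in *dmd* mutants and WT siblings with eNMES. For both pairs the genotype difference had an exact permutation adjusted p of 0.0121 in controls and with eNMES. For the *RYR1* pair no difference was seen beyond the spread, as copy 1 made up 21.2% to 22.1% on average in the 4 groups (exact permutation p from 0.568 to 0.964 over its 4 comparisons, before adjustment).

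When the counts of each pair were summed before the fit, the SERCA1 pair was 0.22 higher on the log2 scale in *dmd* mutant controls than in WT sibling controls (SE 0.05, adjusted p = 0.00847) and 0.35 higher with eNMES (SE 0.05, adjusted p = 0.000263). The summed *CASQ1* pair was 0.76 higher in controls (adjusted p = 0.000455) and 1.03 higher with eNMES (adjusted p = 6.04e-05). Neither the *CACNA1S* pair nor the *RYR1* pair passed between genotypes. The sum matters because counts were estimated from reads that can match more than 1 gene. Counts of *atp2a1* were not whole in 24 of 24 libraries and those of *atp2a1l* in 23 of 24. The split between these paralogues carries that uncertainty, and its part in the opposite differences was not tested. Counts were also not whole in 24 of 24 libraries for *atp2a2a*, *RYR3*, both *RYR1* copies and *CASQ1* copy 2. For *CASQ1* copy 1 this was 23 of 24, and for *CACNA1S* copies 1 and 2 it was 8 and 14. The values and shares of these genes carry the same limit.

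**Figure D3:**
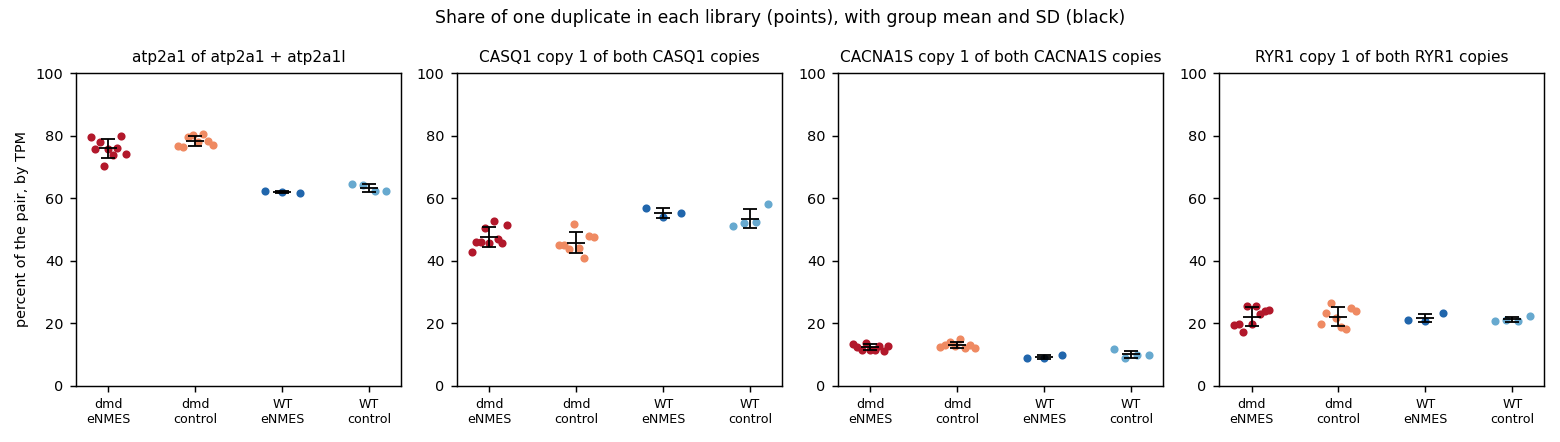
Share of 1 duplicate in its pair (vertical axis, percent by TPM, 0 to 100) for *atp2a1*, *CASQ1* copy 1, *CACNA1S* copy 1 and *RYR1* copy 1, with 1 point per library and the group mean ± SD in black. The *atp2a1* share lay between 70.3% and 80.7% in all 17 libraries of *dmd* mutants and between 61.7% and 64.7% in all 7 libraries of WT siblings, while the *RYR1* shares of the genotypes overlapped.

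The estimated mean transcript length of *atp2a1l*, which weights its 3 annotated transcripts by their use, also differed between genotypes. It was 3368 ± 29.0 bases in *dmd* mutant controls and 3476 ± 18.0 bases in WT sibling controls, and 3340.5 ± 36.2 bases in *dmd* mutants and 3500.4 ± 0.943 bases in WT siblings with eNMES. Ranges did not overlap in either comparison (two-sided exact permutation p = 0.00202 and 0.00455, the smallest possible). This measure was looked at after the data were seen, for every member and group comparison, and its p-values were not adjusted. *atp2a1*, with 8 annotated transcripts, had 2531 ± 39.9 bases in *dmd* mutant controls and 2518 ± 86.0 in WT sibling controls, with overlapping ranges. With eNMES it had 2555 ± 51.0 bases in *dmd* mutants and 2468 ± 23.4 bases in WT siblings, without overlap (two-sided exact permutation p = 0.0182), so that it was longer in *dmd* mutants there, whereas *atp2a1l* was shorter. *CASQ1* copy 1, with 3 annotated transcripts, had 2058.6 ± 34.52 bases in *dmd* mutants and 2118.1 ± 33.15 bases in WT siblings with eNMES, with overlapping ranges. Its two-sided exact permutation p was 0.0318 there and 0.624 between controls.

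Muscle transcripts in general also differed between genotypes. Of 22 fast muscle marker genes, 8 were higher and 1 was lower in *dmd* mutant controls than in WT sibling controls, beside 6.56% and 4.3% of all genes tested. With eNMES 16 were higher and 0 lower in *dmd* mutants than in WT siblings, beside 6.74% and 5.57%. Their summed level was 48410.5 to 61782 TPM in *dmd* mutants with eNMES, 50739 to 59319 in *dmd* mutant controls, 46087 to 49908 in WT siblings with eNMES and 49040.1 to 54032 in WT sibling controls. Each member was therefore also divided by the summed counts of these markers. On that scale *atp2a1* differed by 0.57 and *CASQ1* copy 2 by 0.88 (log2) between *dmd* mutant and WT sibling controls, *CASQ1* copy 1 by 0.43, *CACNA1S* copy 1 by 0.45, *atp2a1l* by -0.56 and *RYR3* by -0.31 (two-sided exact permutation p = 0.00202 each, the smallest possible). With eNMES the differences between *dmd* mutants and WT siblings on this scale were 0.53 for *atp2a1*, 0.98 for *CASQ1* copy 2, 0.48 for *CASQ1* copy 1, 0.35 for *CACNA1S* copy 1 and -0.56 for *atp2a1l* (exact permutation p = 0.00455 each). For *atp2a2a*, which had passed at 0.42 in edgeR, the difference was 0.18 (exact permutation p = 0.436). Between controls *atp2a2a* differed by -0.28 on this scale (exact permutation p = 0.0303). Among stimulated larvae the division by the markers moved the members down together, by a median of -0.24 (log2) against the edgeR values, as it did by -0.06 among controls. *RYR3* stood at -0.27 on this scale among stimulated larvae (exact permutation p = 0.00455), against -0.03 in edgeR (adjusted p = 0.884). Its result there thus depended on the scaling. *CACNA1S* copy 2 stood at -0.12 on this scale among stimulated larvae, against 0.11 in edgeR. Its exact permutation p was 0.0273, and 0.0909 without the most abundant marker.

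The next comparison asked what eNMES changed in *dmd* mutants, 3 days after the last session. Of the 10 members only *atp2a2a* passed, and it was higher. This is 1 of 10, beside 0.414% of all genes tested that passed, 0.267% of them higher and 0.147% lower, and 0 members were called, beside 0.128% (0.0774% higher and 0.0503% lower). For 0 members did the groups not overlap at all, beside 0.0387%. At an unadjusted p under 0.05 there were 3 members, beside 10.3% of all genes tested. DESeq2 also called 0 members, beside 0.314% of all genes tested. The median log2 fold change was 0.09 over the 10 members and 0.00 over all genes tested.

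*atp2a2a* had 3132.5, 2797, 3180.4, 4486, 3112, 3586, 2984, 2228 and 3506 normalized counts in replicates 2 to 10 of the *dmd* mutants with eNMES, against 2085, 2121.5, 2226, 2174, 2406, 1978, 2494 and 2189 in replicates 1 to 8 of the *dmd* mutant controls. Thus 8 of 9 eNMES libraries lay above all 8 controls, and eNMES replicate 9 lay within their range. The log2 fold change was 0.55 (SE 0.10, adjusted p = 0.0361), a 1.46-fold difference (two-sided exact permutation p = 0.000288). Without eNMES replicate 5, the highest library, or any other single library it still passed, at log2 fold changes between 0.48 and 0.60. Without eNMES replicate 9 it was 0.6004 and so over the minimum for a call.

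The change was seen on both sides of the clock gene score. Among libraries with a negative score *atp2a2a* had 2797 to 4486 normalized counts in the 5 with eNMES and 2085 to 2406 in the 5 controls, a log2 fold change of 0.60. Among libraries with a positive score it had 2228 to 3586 in the 4 with eNMES and 1978 to 2494 in the 3 controls, a log2 fold change of 0.47. With these smaller groups the edgeR adjusted p was 0.291 and 0.573, while with the side of the score as a term in the fit it was 0.0419.

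Other cell types were checked beside this result. Summed heart markers, with 11 genes, lay at 130 to 159 TPM in *dmd* mutants with eNMES and 142 to 167 TPM in *dmd* mutant controls, and 0 of 11 passed. Their medians were 146 TPM with eNMES and 147 TPM in controls. Summed slow muscle markers, with 10 genes, lay at 1472 to 1601 TPM with eNMES and 1368 to 1546 TPM in controls, and 0 of 10 passed. The slow muscle medians were 1537 TPM with eNMES and 1424.5 TPM in controls. Summed macrophage and neutrophil markers, of which 16 were tested, lay at 195 to 290 TPM with eNMES and 191 to 274 TPM in controls, with medians of 276 TPM with eNMES and 209 TPM in controls, and 0 of 16 passed. In both groups 9 of 10 slow muscle genes and 14 of 16 macrophage and neutrophil genes were above 0 in every library, and the part of these cell types in the change of *atp2a2a* was not tested. Relative to fast muscle transcripts *atp2a2a* was 0.45 higher with eNMES on the log2 scale (two-sided exact permutation p = 0.00267).

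The other 9 members did not pass in *dmd* mutants. The log2 fold change of *atp2a1l* was 0.13 (95% interval 0.03 to 0.22, adjusted p = 0.325), and it was 0.12 for *RYR3* (95% interval -0.003 to 0.249) and for both *RYR1* copies. *atp2a1*, *CACNA1S* copy 1, *CACNA1S* copy 2 and both *CASQ1* copies had log2 fold changes between -0.06 and 0.05. Intervals of these 9 genes reached from -0.29 to 0.26, so a change of the size called here was outside each of them. The *atp2a1* share of its pair was 75.9% with eNMES and 78.4% in controls of the *dmd* mutants, a difference of -2.48 percentage points (two-sided exact permutation p = 0.0526). Relative to fast muscle transcripts *atp2a1* was 0.12 lower with eNMES on the log2 scale (two-sided exact permutation p = 0.0261, not adjusted). By TPM in place of counts that p was 0.0863. On this scale 5 of 10 members were above 0 and 5 below.

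In WT siblings, 0 of the 10 members passed with eNMES and 0 were called, beside 6.48% of all genes tested that passed (3.12% higher and 3.36% lower) and 2.95% that were called (1.05% higher and 1.9% lower). At an unadjusted p under 0.05 there was 1 member, beside 17.5% of all genes tested, and DESeq2 called 0, beside 3.61%. The log2 fold changes of 9 of 10 members were below 0, with a median of -0.09, and the 22 fast muscle markers had a median of -0.16 in the same comparison. Relative to the summed fast muscle markers 5 of 10 members were above 0 and 5 below. *CASQ1* copy 2 had 1046, 1182 and 1071 normalized counts with eNMES, against 1396, 1659, 1313 and 1292 in controls, without overlap and with a log2 fold change of -0.36 (SE 0.18, adjusted p = 0.314). *atp2a1* had a log2 fold change of -0.18 (SE 0.08, adjusted p = 0.227) and *CASQ1* copy 1 of -0.22 (SE 0.12, adjusted p = 0.328), also without overlap. Groups of 3 and 4 libraries did not overlap for 20.3% of all genes tested, so 3 of 10 members is near that background. In an edgeR fit of the WT siblings alone, *CASQ1* copy 2 (adjusted p = 0.0257) and *atp2a1* (adjusted p = 0.0951) passed, and 0 members were called. That fit called more genes in general, 1053 of 24525 against 763 of 25832 in the fit of 4 groups. The share of all genes that passed in it at any fold change was not counted, so these passes have no background beside them.

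Whether eNMES acted differently in the genotypes was tested as the difference between both changes. Here 0 of the 10 members passed, beside 2.81% of all genes tested (1.59% higher and 1.22% lower), and 0 were called, beside 1.85% (1.19% higher and 0.654% lower). At an unadjusted p under 0.05 there was 1 member, beside 14.5% of all genes tested, and DESeq2 called 1, beside 3.07%. All 10 differences were above 0, from 0.04 for *CACNA1S* copy 2 to 0.64 for *atp2a2a*, with a median of 0.19 against -0.01 over all genes tested and 0.19 over the 22 fast muscle markers. Relative to the summed fast muscle markers, a scale applied to this difference after the data were seen, 5 of 10 were above 0 and 5 below, from -0.13 for *CACNA1S* copy 2 to 0.45 for *atp2a2a*. *atp2a2a* had 3224 ± 618 normalized counts in *dmd* mutants with eNMES and 2209 ± 168 in *dmd* mutant controls, and 2417 ± 508 in WT siblings with eNMES and 2583.5 ± 386 in WT sibling controls. Its difference of 0.64 (SE 0.19) had an edgeR adjusted p of 0.1005, just past the threshold. It passed in DESeq2 (adjusted p = 0.0269), and in edgeR without WT eNMES replicate 2 (0.0932), *dmd* mutant eNMES replicates 3 (0.0793), 5 (0.0865) or 9 (0.0523), or *dmd* mutant control replicates 6 (0.0992) or 7 (0.0723).

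A further SERCA2 gene, *ATP2A2* (ENSDARG00000005122), which is not a member of the set, did pass the test of this difference. It had 1143, 1455 and 1801 normalized counts (lowest, median, highest) in *dmd* mutants with eNMES and 929, 1349 and 1566 in *dmd* mutant controls, which overlapped (log2 fold change 0.17, adjusted p = 0.668). In WT siblings it had 992, 964 and 974 normalized counts with eNMES, against 1983, 1398, 1528 and 1329 in controls, and it fell by 0.67 on the log2 scale (SE 0.18, adjusted p = 0.0464). The difference of the changes was 0.84 (SE 0.22, adjusted p = 0.0603). In *dmd* mutants its 7 libraries with a positive clock gene score had 1448 to 1801 normalized counts and its 10 libraries with a negative score had 929 to 1525, which overlapped. Since all WT siblings with eNMES had a negative score and all their controls a positive one, the score and eNMES cannot be told apart in that result. The fall in WT siblings did not pass without WT eNMES replicates 1, 2 or 3 (adjusted p = 0.14, 0.133 and 0.139) or WT control replicate 1 (0.148), and the difference of the changes did not pass without these libraries or WT control replicate 3 (0.111 to 0.17).

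**Figure D4:**
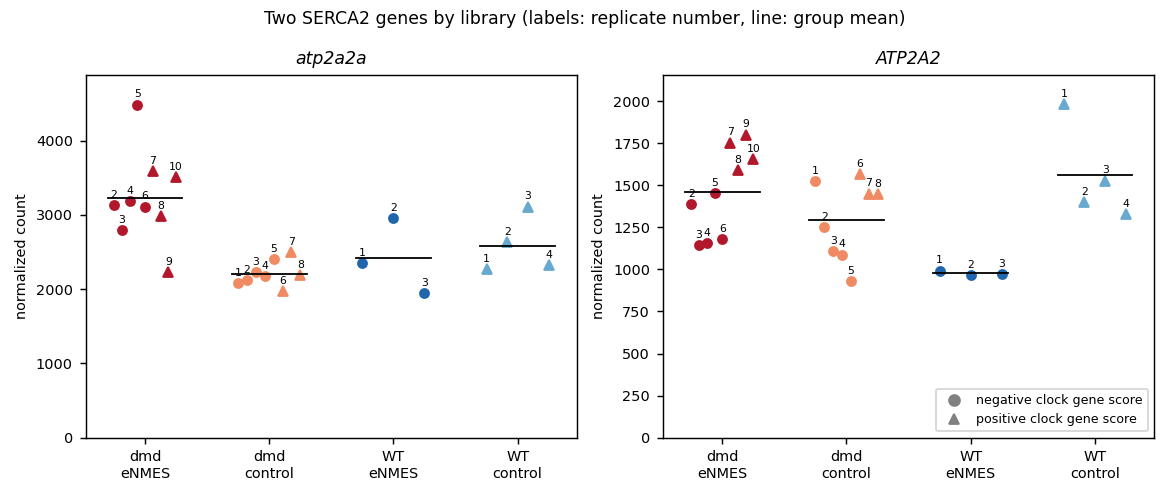
Normalized counts (vertical axis, linear from 0) of the SERCA2 genes *atp2a2a* and *ATP2A2* in each library, labelled by replicate number, with circles for a negative and triangles for a positive clock gene score and a line at the group mean. For *atp2a2a* the *dmd* mutants with eNMES (mean 3224) lay above the *dmd* mutant controls (mean 2209) apart from replicate 9, and for *ATP2A2* the 3 WT siblings with eNMES (964 to 992) lay below the 4 WT sibling controls (1329 to 1983).

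Libraries of a group were not equally spread around the mean. The SD of log2 normalized counts over the 10 members had a median of 0.15 in *dmd* mutants with eNMES, 0.14 in *dmd* mutant controls, 0.07 in WT siblings with eNMES and 0.11 in WT sibling controls. *CASQ1* copy 2 was the most variable member in *dmd* mutants, at 0.32 with eNMES and 0.23 in controls. Among *dmd* mutants with eNMES, replicate 5 was at an extreme of its group for 7 of the 10 members: it was lowest for *RYR3*, *atp2a1*, *CACNA1S* copy 2 and both *CASQ1* copies and highest for *atp2a1l* and *atp2a2a*. Replicate 4 of the same group was at an extreme for 6 members, highest for 5 of them. All genotype differences that passed among stimulated larvae still passed without replicate 5.

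The wider pathway was followed through 88 further genes in 8 lists, of which all were tested. Some names on the lists matched no gene by symbol and were not examined. In *dmd* mutant controls against WT sibling controls, 11 were higher and 3 lower, 15.9% of the 88, beside the 10.9% of all genes tested given above. With eNMES 17 were higher and 1 was lower in *dmd* mutants than in WT siblings, 20.5% of the 88, beside 12.3%. With eNMES against control, 1 gene was higher in *dmd* mutants, 1.14% of the 88 beside 0.414% of all genes tested, and 2 were higher and 2 lower in WT siblings, 4.55% beside 6.48%. For the counts of single lists below, the shares of all genes tested are those given above for the same comparison.

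The triad, where transverse tubule and sarcoplasmic reticulum meet, had 4 of 17 genes higher and 0 lower in *dmd* mutant controls than in WT sibling controls, beside 6.56% and 4.3% of all genes tested. They were *trdn* (log2 fold change 0.48, adjusted p = 0.0229), whose product triadin anchors calsequestrin to the ryanodine receptor, *DYSF* (0.35), a membrane repair gene, *JPH2* (0.26), which tethers the membranes of the junction, and *cav3* (0.22), the muscle caveolin. With eNMES 7 of 17 were higher and 0 lower in *dmd* mutants than in WT siblings, beside 6.74% and 5.57% of all genes tested. Among the 7 were *JPH2* (0.44), *JPH1* copy 1 (0.33) and *SRL* copy 2 (0.72, adjusted p = 0.00919), which encodes sarcalumenin, a calcium binding protein of the sarcoplasmic reticulum. *trdn* did not pass when only the *dmd* mutant controls with a positive clock gene score were used (0.51, adjusted p = 0.169). Between genotypes among stimulated larvae *trdn* passed in 0 of 24 fits with a library left out. Its log2 fold change there was 0.20 to 0.36 (edgeR adjusted p from 0.134 to 0.565). *SRL* copy 2 did not pass among stimulated larvae with the replicate number as a block (0.57, adjusted p = 0.116).

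Of 7 voltage sensor partners, 0 passed between control groups and *CACNB1*, the beta subunit of the channel, was 0.31 higher in *dmd* mutants with eNMES than in WT siblings with eNMES (adjusted p = 0.00412). *CACNG1* copy 1, the gamma subunit, was the single pathway gene that passed with eNMES in *dmd* mutants. It had 750 to 939 normalized counts with eNMES and 617 to 782 in controls of the *dmd* mutants, a log2 fold change of 0.30 (SE 0.06, adjusted p = 0.0349). In WT siblings it had 762 to 861 with eNMES and 608 to 748 in controls, also at 0.30 (SE 0.09, adjusted p = 0.0657). In *dmd* mutants it passed without each single library, and in WT siblings it did not pass without eNMES replicates 1, 2 or 3 (adjusted p = 0.19, 0.223 and 0.127) or control replicates 1, 3 or 4 (0.212, 0.135 and 0.121). Within the negative and the positive side of the clock gene score its log2 fold change in *dmd* mutants was 0.31 and 0.29, and it did not pass on either side (adjusted p = 0.401 and 0.535).

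Of 7 cytosolic buffers and sensors, 2 were higher and 0 lower in *dmd* mutant controls than in WT sibling controls. With eNMES 4 were higher and 0 lower in *dmd* mutants than in WT siblings. Among the 7 were *pvalb4*, a parvalbumin that buffers calcium in fast fibers, and *TNNC1*, a troponin C also on the slow muscle list. They were 0.37 and 0.31 higher in *dmd* mutant controls than in WT sibling controls. With eNMES they were 0.53 and 0.52 higher in *dmd* mutants than in WT siblings. *pvalb1* was 0.44 lower with eNMES in WT siblings (log2 fold change -0.44, adjusted p = 0.041). Modulators of the receptor and pump gave 1 higher gene of 11 in *dmd* mutant controls, *calm3a* (0.21). With eNMES they gave 2, *FKBP1B* (0.41) and *fkbp1aa* (0.27), which encode stabilizing partners of the ryanodine receptor. That list held 13 names, and its pump regulators *sln* and *pln* matched no gene, so they were not examined. Store-operated entry and extrusion, with 18 genes, had *ORAI1* copy 2 higher in *dmd* mutant controls (0.32, adjusted p = 0.0848). The sodium-calcium exchangers *slc8a4a* (-0.34) and *SLC8A1* copy 2 (-0.47, adjusted p = 0.0914) were lower there. *ORAI1* copy 2 and *SLC8A1* copy 2 thus lay near the threshold in that comparison. With eNMES 1 of these 18 genes was higher and 0 lower in *dmd* mutants than in WT siblings. The higher gene was *STIM1* copy 1, the calcium sensor of the store, at 0.23 (adjusted p = 0.027). *ORAI1* copy 2 was 0.50 higher with eNMES in WT siblings (adjusted p = 0.0405). Of 7 genes of mitochondrial uptake, *MICU3* copy 1 was lower in *dmd* mutant controls (-0.30, adjusted p = 0.089). Among stimulated larvae it did not pass (-0.29, adjusted p = 0.124).

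The calcium-dependent proteases held the largest difference of the pathway. *CAPN3* copy 2, a copy of the muscle calpain gene, had 64.2 to 102 normalized counts in *dmd* mutant controls and 19.4 to 31.9 in WT sibling controls, a log2 fold change of 1.76 (SE 0.21, adjusted p = 7.4e-06). With eNMES it had 60.9 to 113 in *dmd* mutants and 10.5 to 24.1 in WT siblings, a log2 fold change of 2.51 (SE 0.26, adjusted p = 9.99e-07). *CAPN3* copy 1, which was far more abundant at 58.0 ± 3.56 TPM in *dmd* mutant controls and 63.8 ± 4.19 TPM in WT sibling controls, did not pass. *CAPN1* copy 1 and *capn1a* were 0.26 and 0.27 higher in *dmd* mutant controls than in WT sibling controls. Among stimulated larvae *CAPN3* copy 2 was the only 1 of the 14 genes of this list that passed as higher in *dmd* mutants, and 1 was lower.

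**Figure D5:**
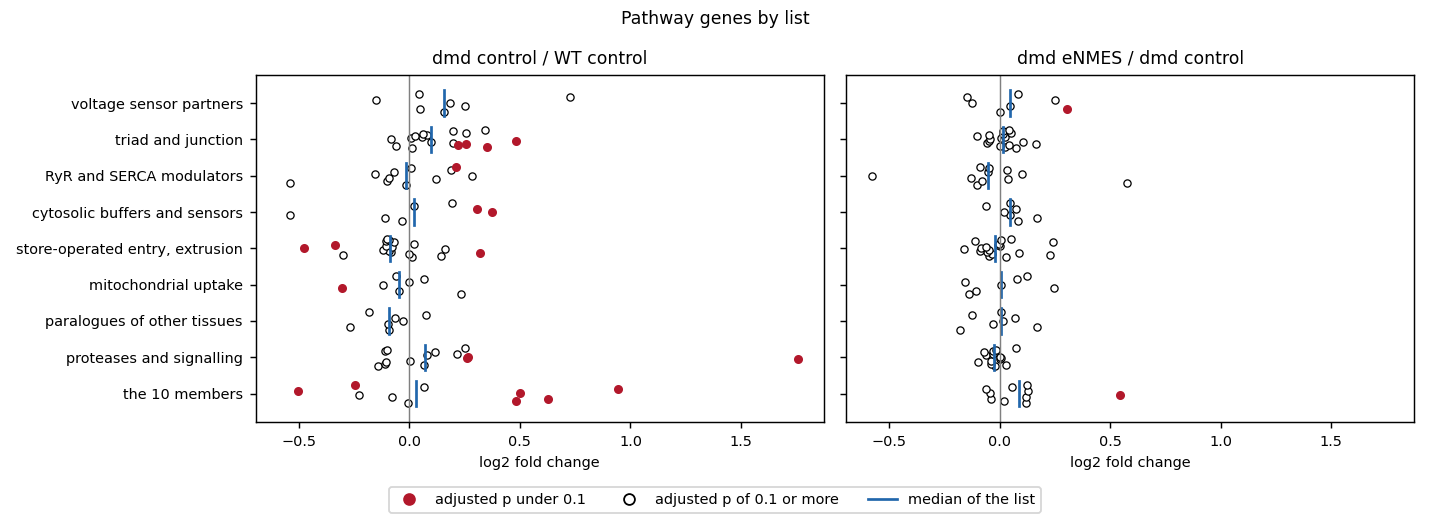
Log2 fold changes (horizontal axis) of the 88 pathway genes by list and of the 10 members, for *dmd* mutant over WT sibling controls on the left and eNMES over control in *dmd* mutants on the right; filled points have an adjusted p under 0.1 and blue lines are list medians. Between controls 14 pathway genes passed, with *CAPN3* copy 2 the farthest out at 1.76, and with eNMES in *dmd* mutants *CACNG1* copy 1 passed at 0.30 beside the member *atp2a2a* at 0.55.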

How the data were processed

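Libraries of polyA+ RNA from whole zebrafish larvae were sequenced by the authors, who trimmed the reads with Trimmomatic and estimated expression with RSEM 1.2.31 and Bowtie 1.1.2 (versions from the submitters' processing notes, genome build GRCz11). Larvae had been grouped by severity and by their change in birefringence before 2 were pooled per library. The deposited tables hold estimated counts per gene, not scaled for depth, the TPM that the authors' RSEM run gave, and a mean transcript length per gene in bases. RSEM shares reads that match several genes by estimation, and 24.3% to 35.5% of the genes in a library had counts that were not whole. Labels name 25 samples, and 24 libraries were used. One *dmd* eNMES library, replicate 1, was not analysed here. No library pair was identical.

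Estimated counts were rounded, and the 25832 genes with at least 10 counts over all libraries were tested with the quasi-likelihood test of edgeR 4.0.16 (R 4.3.3, limma 3.58.1) with TMM normalization and robust dispersions, in 1 fit of 4 groups. P-values were adjusted by Benjamini-Hochberg over all genes tested. Intervals are the log2 fold change ± 1.96 standard errors. Normalized counts are scaled to the mean library size of 18581325. Depth was high for these genes, with 171 or more estimated counts in each library, so the spread between libraries set the precision (biological coefficient of variation 0.154). Exact permutation tests (two-sided, on mean log2 values with a pseudocount of 1, on percents for shares and on bases for lengths) used Python 3.11.15 with numpy 2.4.6, pandas 2.3.3 and scipy 1.17.1, and figures matplotlib 3.10.9. There were 40 tests of single members, 40 relative to fast muscle transcripts and 16 of shares. Lengths were also tested for every member and group comparison, with p-values not adjusted. Symbols came from a table of gene names by identifier, which named 29201 of the 32520 genes.

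Members and lists were chosen with earlier results of these data known. The rule for named genes was the 10 members, *dmd*, and list genes that were called in a comparison or lay at a list's extremes. Other list genes that passed are named as examples, chosen after their values were seen. Alternatives were DESeq2 1.42.0, its size factors in edgeR, filterByExpr, a minimum of 1 count, a fit of the compared groups alone, a block for the replicate number, no minimum fold change, a threshold of 0.05, summed paralogues, the clock gene score, a pseudocount of 10, and each library left out in turn. Comparisons of *dmd* mutants with eNMES by clock gene score, of transcript lengths, and of both eNMES changes relative to fast muscle markers were added after seeing the data. The procedures were tested on simulated data. Of 100 genes given a change of 0.7 on the log2 scale, 70 passed in edgeR for eNMES in WT siblings. In *dmd* mutants with eNMES 100 passed, and between controls 93. Genes without a change gave 11, 9 and 10 calls in these comparisons. The test thus missed more changes of that size in WT siblings than in the other comparisons. Coordinates and sequences are not given, since no genome of the build was used.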

Additional observations from a re-analysis of the deposited data

Results flagged for a closer look

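*CACNA1S* copy 2 had 2530.4 normalized counts in *dmd* eNMES replicate 5, below the other 8 libraries of that group, which had 2914 to 3177.5. This was the only flag in 42 combinations of a gene or share and a group that were checked. Chance flags about 1 in 20 combinations, so 1 in 42 is not beyond chance.

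*ATP2A2*, a SERCA2 gene outside the set, differed in its change with eNMES between genotypes by 0.84 (log2, *dmd* mutants minus WT siblings, edgeR adjusted p = 0.0603). The adjusted p was 0.13, 0.143 and 0.17 without WT eNMES replicates 1, 2 and 3, and 0.144 and 0.111 without WT control replicates 1 and 3. *GATA5*, a heart transcription factor from the marker lists, differed by -0.77 (adjusted p = 0.047). It had 257 ± 37.2 normalized counts in *dmd* mutants with eNMES and 282 ± 54.4 in *dmd* mutant controls, and 301 ± 15.9 in WT siblings with eNMES and 193 ± 26.6 in WT sibling controls. Its adjusted p was 0.131 and 0.156 without WT eNMES replicates 2 and 3 and 0.118 without WT control replicate 1.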

How the results depend on the processing

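Of the 10 members, *atp2a1*, *atp2a1l*, *CACNA1S* copy 1 and both *CASQ1* copies passed between genotypes, in controls and with eNMES, under all 33 settings run for each. The number of members called was 1 with eNMES in *dmd* mutants, 6 between controls and 6 between stimulated larvae when no minimum fold change was set, and 1 between controls when the *dmd* mutant controls were those with a negative clock gene score (*atp2a1* then at 0.596). For the difference of the eNMES changes it was 1 with DESeq2, with its size factors, with filterByExpr and with the replicate block, each time *atp2a2a*. With each library left out in turn it was 0 to 1 for eNMES in *dmd* mutants, 2 to 2 between controls, 3 to 4 with eNMES and 0 to 1 for the difference. Libraries that shared a replicate number had correlations of deviations from -0.142 to 0.26, and the labels do not say whether they were paired. In *dmd* mutants the side of the clock gene score went with the replicate number, as given above. With replicate numbers as a block *RYR3* between controls had an adjusted p of 0.185 and *atp2a2a* between stimulated larvae 0.121. *RYR3* between controls was 0.114 with the positive clock gene score alone. *RYR1* copy 1 passed between stimulated larvae with the positive score alone (0.0166).

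Signs that reversed were of log2 fold changes that did not pass in the main fit. There they lay between -0.0959, for *atp2a2a* with eNMES in WT siblings, and 0.0211, for *CASQ1* copy 1 with eNMES in *dmd* mutants. With a library left out, *RYR1* copy 1 between controls ranged over -0.0498 to 0.0212 (above 0 in 5 fits: 0.0021, 0.014, 0.0153, 0.0203 and 0.0212), *RYR3* between stimulated larvae over -0.0604 to 0.0088 (0.0285 with the block), *atp2a2a* with eNMES in WT siblings over -0.2657 to 0.0243 (also 0.0062), and *CACNA1S* copy 2 there over -0.0575 to 0.0541 (also -0.0537 and -0.0033). In *dmd* mutants *CASQ1* copy 1 ranged over -0.0163 to 0.0692 (also -0.0085, and -0.03 with the negative score alone), *CASQ1* copy 2 over -0.1128 to 0.0059, and *CACNA1S* copy 1 was 0.0078 with the positive score alone. The cause was not tested.

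Over all genes, the number called was 763 with eNMES in WT siblings (259 to 813 with a library left out, 423 at an adjusted p of 0.05, 1675 with no minimum fold change), 33 in *dmd* mutants (14 to 59, 3 to 107 over the other alternatives), 807 between controls (491 to 967, 345 to 2805), 1018 between stimulated larvae (509 to 1121, 675 to 3181) and 477 for the difference (47 to 758, 186 to 794).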
